A study of Mus musculus with 88 samples.

Results

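The NR-S1 tumour was examined 6 h after 30 Gy of carbon ions, on the 2 arrays titled for that tumour, beam, dose and time, against the 2 arrays of untreated NR-S1 from the same carbon-ion arm. These 4 arrays were chosen by their titles alone, from 88 in all. NR-S1 is labelled a squamous cell carcinoma that arose spontaneously in a C3H/He mouse, and C3H/HeNrs mice carried it as a transplant in the hind leg, so each RNA extract held tumour cells together with whatever host cells the tumour contained. The labels name no altered allele in any group and no agent other than radiation. For comparison, the same tumour was taken at day 1 and day 3 after carbon ions and 6 h after 30 or 50 Gy of gamma rays, with untreated NR-S1 of the gamma arm as those tumours' own control. The other tumours given 30 Gy of carbon ions were the spontaneous squamous cell carcinoma SCCVII and the fibrosarcomas NFSa, of spontaneous origin, and #8520, induced by radiation. Every group had 2 arrays, and the labels do not say whether these came from separate animals, so p-values measure the spread between such arrays, which may be technical.

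Carbon ions deposit their energy densely along the track and leave clustered DNA breaks. Breaks activate the kinases ATM and ATR, which stabilise the transcription factor p53 and hold cells before mitosis. p53 induces Cdkn1a, a cyclin-dependent kinase inhibitor, and through it the DREAM complex represses cell cycle genes at promoter elements called CHR and CCAAT boxes. Dying and damaged cells also release signals that act through NF-kB and interferon receptors, on the tumour cells and on the immune cells among them.

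Values are log2 of the deposited array intensity, and a response is the 6 h mean minus the untreated mean on that scale, with its standard error (SE) from a linear model fitted with limma to all 88 arrays. A gene passed where its Benjamini-Hochberg adjusted p over all genes tested was at most 0.05. "Rose" and "fell" are used only of genes that passed, and the levels of different genes are not compared, because each has its own probe. The 4 arrays had median intensities of 1.04 to 1.05 and 226 to 279 probes without a value. Duplicates correlated over genes at 0.996 in the untreated group and 0.997 at 6 h. At day 1 they correlated at 0.990, and replicate 2 of that group stood apart, with 237 values not above 0. The labelled cell type was checked with the basal keratins of squamous epithelium. Krt5 read 9.04 on both untreated arrays and 8.95 and 8.99 at 6 h, and Krt14 read 8.99 and 8.93, then 8.96 and 8.94. Neither response passed, at -0.07 ± 0.17 for Krt5 (adjusted p = 0.82) and -0.01 ± 0.22 for Krt14 (adjusted p = 0.98). In the untreated gamma arm Krt5 read 7.69 and 7.75, lower than on any of these 4 arrays. In the untreated SCCVII, NFSa and #8520 tumours of the carbon-ion arm Krt5 read -2.29 to -1.51 and Krt14 -3.29 to 0.32, far below NR-S1. In such bulk samples fewer cells of a type and less RNA per cell cannot be told apart.

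At 6 h, 1953 of 13424 genes tested rose (14.5%) and 2047 fell (15.2%), with a median response over all genes of -0.03. A 1.5-fold rise was passed by 855 of these genes and a 1.5-fold fall by 593, and 258 and 166 moved at least 2-fold. The largest rise was that of Ptx3, the secreted pattern recognition protein pentraxin 3, which read 0.45 and 0.61 untreated and 4.27 and 4.30 at 6 h. This was a 13.5-fold rise, with an adjusted p of 8.4e-31. In the untreated gamma arm Ptx3 read 2.18 and 1.83, between these levels. The largest fall was that of Cyp2f2, a cytochrome P450, from 5.20 and 5.18 to 1.02 and 1.19, or 17.0-fold, with an adjusted p of 6.5e-28. Without untreated replicate 2 the number of genes that fell was 1330, and without 6 h replicate 1 it was 1233. With the gamma arm's untreated tumours as the reference, 4042 of the 13465 genes fitted were higher at 6 h and 2854 lower. With the untreated tumours of both arms as the reference, 2872 were higher and 2469 lower. These counts are the background for the lists set against those 2 references below.

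**Figure D1:**
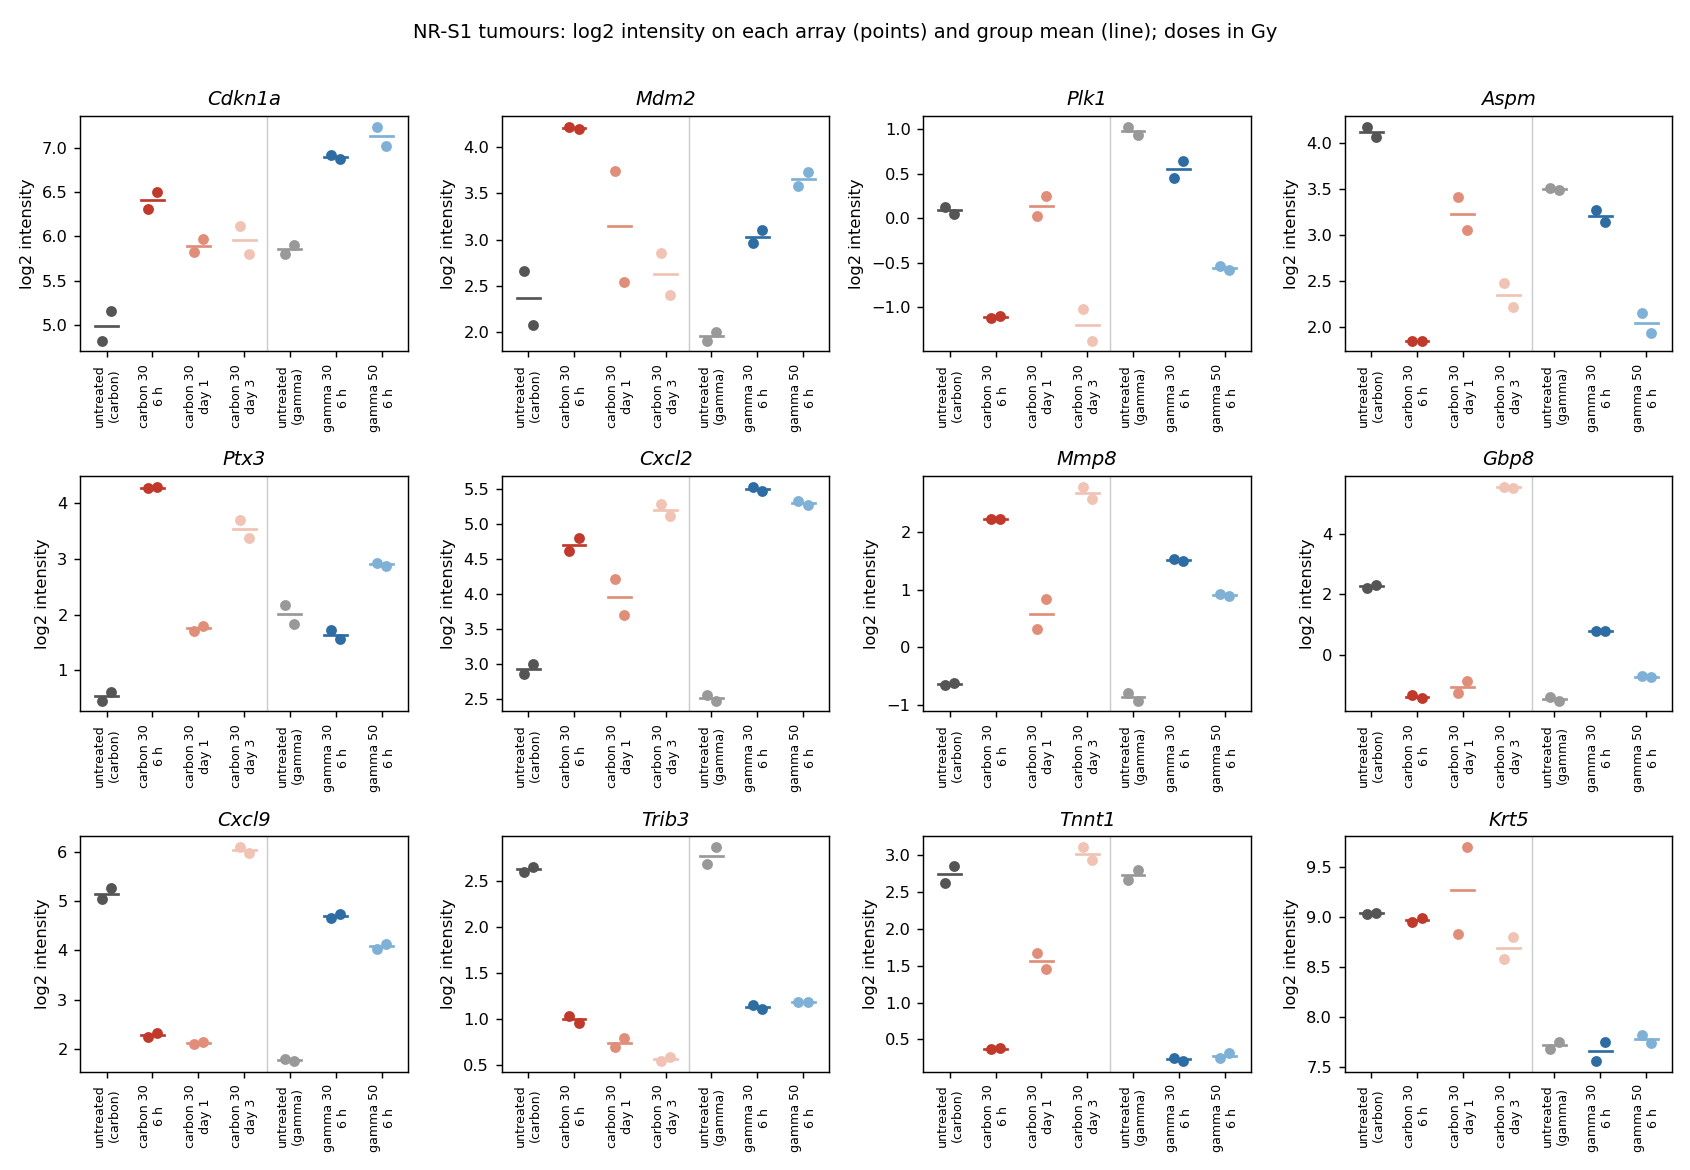
Levels of 12 genes on the NR-S1 arrays, as log2 of the deposited intensity, in 7 groups along the horizontal axis. Points are single arrays and lines are group means. Cdkn1a, Mdm2, Ptx3, Cxcl2 and Mmp8 are higher at 6 h after carbon ions than untreated, Plk1, Aspm, Gbp8, Cxcl9, Trib3 and Tnnt1 are lower, and Krt5 lies near 9 in both groups. The untreated gamma arm is low for Gbp8 and Cxcl9.

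p53 target genes rose together at 6 h. Of 23 tested targets of arrest, repair and feedback, 18 rose and 1 fell, with a median response of 0.68, and of 11 tested targets of cell death 8 rose and 0 fell, with a median of 0.48. Cdkn1a read 4.82 and 5.15 untreated and 6.31 and 6.50 at 6 h. Both irradiated arrays lay above both untreated ones, and the response was 1.42 ± 0.19 (adjusted p = 3.2e-08). Mdm2, the ubiquitin ligase that degrades p53, read 2.66 and 2.07 and then 4.22 and 4.20. The untreated arrays differed from each other by more than the irradiated ones, yet the groups did not overlap, and the response was 1.84 ± 0.20 (adjusted p = 1.4e-10).

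The largest response in the arrest list was that of Ptprv, a receptor phosphatase of p53-dependent arrest, at 1.86 ± 0.10, followed by Mdm2 and by Btg2, an antiproliferative regulator of mRNA decay, at 1.77 ± 0.13. Ercc5, an endonuclease of nucleotide excision repair, read 0.71 and 0.49 untreated and 2.40 and 2.26 at 6 h, a rise of 1.73. Ccng1, cyclin G1, rose by 1.01 ± 0.13. The 1 member that fell was Sesn1, sestrin 1, an inhibitor of mTORC1 signalling, from 3.20 and 3.13 to 1.97 and 2.36.

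Among the death genes Ei24, an endoplasmic reticulum protein, rose by 1.57 and Fas, the death receptor, by 1.30. Aen, a nuclease of apoptosis, rose by 1.06 and Apaf1, the scaffold of the apoptosome, by 0.83. Bbc3, which encodes the BH3-only protein PUMA, read 1.25 and 1.18 untreated and 1.36 and 1.43 at 6 h, a response of 0.18 that did not pass (adjusted p = 0.12), though against the untreated gamma arm it passed at 0.35. In SCCVII, NFSa and #8520 the Bbc3 responses were 1.11, 0.99 and 0.70, and NR-S1 lay 0.75 below their mean (adjusted p of that difference 4.8e-08). Pmaip1, which encodes NOXA, rose by 0.48 in NR-S1, against responses of 1.89, 1.67 and 2.09 in the other tumours, a difference of -1.41 (adjusted p = 3e-15). For Cdkn1a the responses elsewhere were 1.08, 1.16 and 1.40, and the difference of 0.20 did not pass (adjusted p = 0.57).

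Genes of G2 and mitosis fell. Of 41 tested, 36 fell and 0 rose, with a median response of -0.92, and the 5 that did not pass were Kif23, Ube2c, Foxm1, Bub1 and Spc25. Kif23 passed at -0.58 without untreated replicate 2. Aspm, a spindle pole protein, read 4.17 and 4.06 untreated and 1.86 on both arrays at 6 h, a fall of 2.26 ± 0.14 (adjusted p = 6.6e-19). Nusap1, a spindle-associated protein, fell by 1.67 and Nek2, a centrosomal kinase, by 1.66. Ccna2, cyclin A2, read 5.73 and 5.70 and then 4.26 and 4.19. Plk1, the kinase that drives mitotic entry, went from 0.13 and 0.05 to -1.12 and -1.10. In each of these genes both irradiated arrays were below both untreated ones. Foxm1, the transcription factor of this programme, had a response of -0.21 that did not pass (adjusted p = 0.13), and it passed at -0.35 without untreated replicate 2 or 6 h replicate 1.

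The promoters of 3 genes that fell show the letters by which DREAM and NF-Y are known to recognise this class: TTTGAA, the CHR core, and CCAAT, each searched on both strands. They are the 100 bases before the transcription start, from RefSeq on GRCm38.p6, in the direction of transcription with the matches in capitals. Cdc20 encodes the activator of the anaphase-promoting complex, Kif11 the motor that separates spindle poles and Espl1 separase, which cleaves cohesin.
Cdc20: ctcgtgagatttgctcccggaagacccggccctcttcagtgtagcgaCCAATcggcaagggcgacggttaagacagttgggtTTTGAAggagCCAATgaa
Kif11: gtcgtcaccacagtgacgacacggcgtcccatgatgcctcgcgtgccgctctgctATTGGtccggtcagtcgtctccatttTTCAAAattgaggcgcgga
Espl1: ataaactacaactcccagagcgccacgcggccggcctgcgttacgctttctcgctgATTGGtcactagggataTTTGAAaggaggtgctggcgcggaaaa
The stretches lie at chr4:118437344-118437443 on the minus strand for Cdc20, chr19:37376282-37376381 on the plus strand for Kif11 and chr15:102296193-102296292 on the plus strand for Espl1. In Kif11 both matches are on the opposite strand, so that the printed strand reads ATTGG and TTCAAA. The CCAAT match of Espl1 is also on the opposite strand and is printed as ATTGG. Cdc20 read 4.87 and 4.82 untreated and 3.63 and 3.75 at 6 h, a fall of 1.15. Kif11 fell by 1.17, from 3.21 and 3.10 to 1.91 and 2.07, and Espl1 by 1.33, from 2.96 and 3.15 to 1.72 and 1.74. Over the 250 bases before the start, CCAAT was present in 25 of the 33 mitosis genes with a promoter sequence (75.8%) and TTTGAA in 9 (27.3%), against 39.3% and 13.8% of 10777 genes tested. A match is a description of the letters and shows no binding.

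Genes of DNA replication fell as well. Of 35 tested genes of replication and nucleotide synthesis 21 fell and 0 rose, with a median of -0.46. Uhrf1, which guides maintenance methylation, fell by 1.30, from 5.04 and 5.30 to 3.81 and 3.93, and Mcm6, a subunit of the replicative helicase, by 1.00. Pold1, the catalytic subunit of DNA polymerase delta, fell by 0.94 and Mcm2 by 0.83. Of 27 repair and checkpoint genes 12 fell and 2 rose, with a median of -0.27. Ung, the uracil glycosylase that starts base excision repair, went from 1.79 and 1.98 to 0.07 and 0.09, a fall of 1.80 (adjusted p = 5.8e-20). Its responses in SCCVII, NFSa and #8520 were -2.16, -2.0 and -1.52. Pif1, a DNA helicase, fell by 1.77 and Chek1, the checkpoint kinase below ATR, by 0.88. The 2 that rose were Lig4, the ligase of end joining, by 0.62 and Msh6, a mismatch repair protein, by 0.59.

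**Figure D2:**
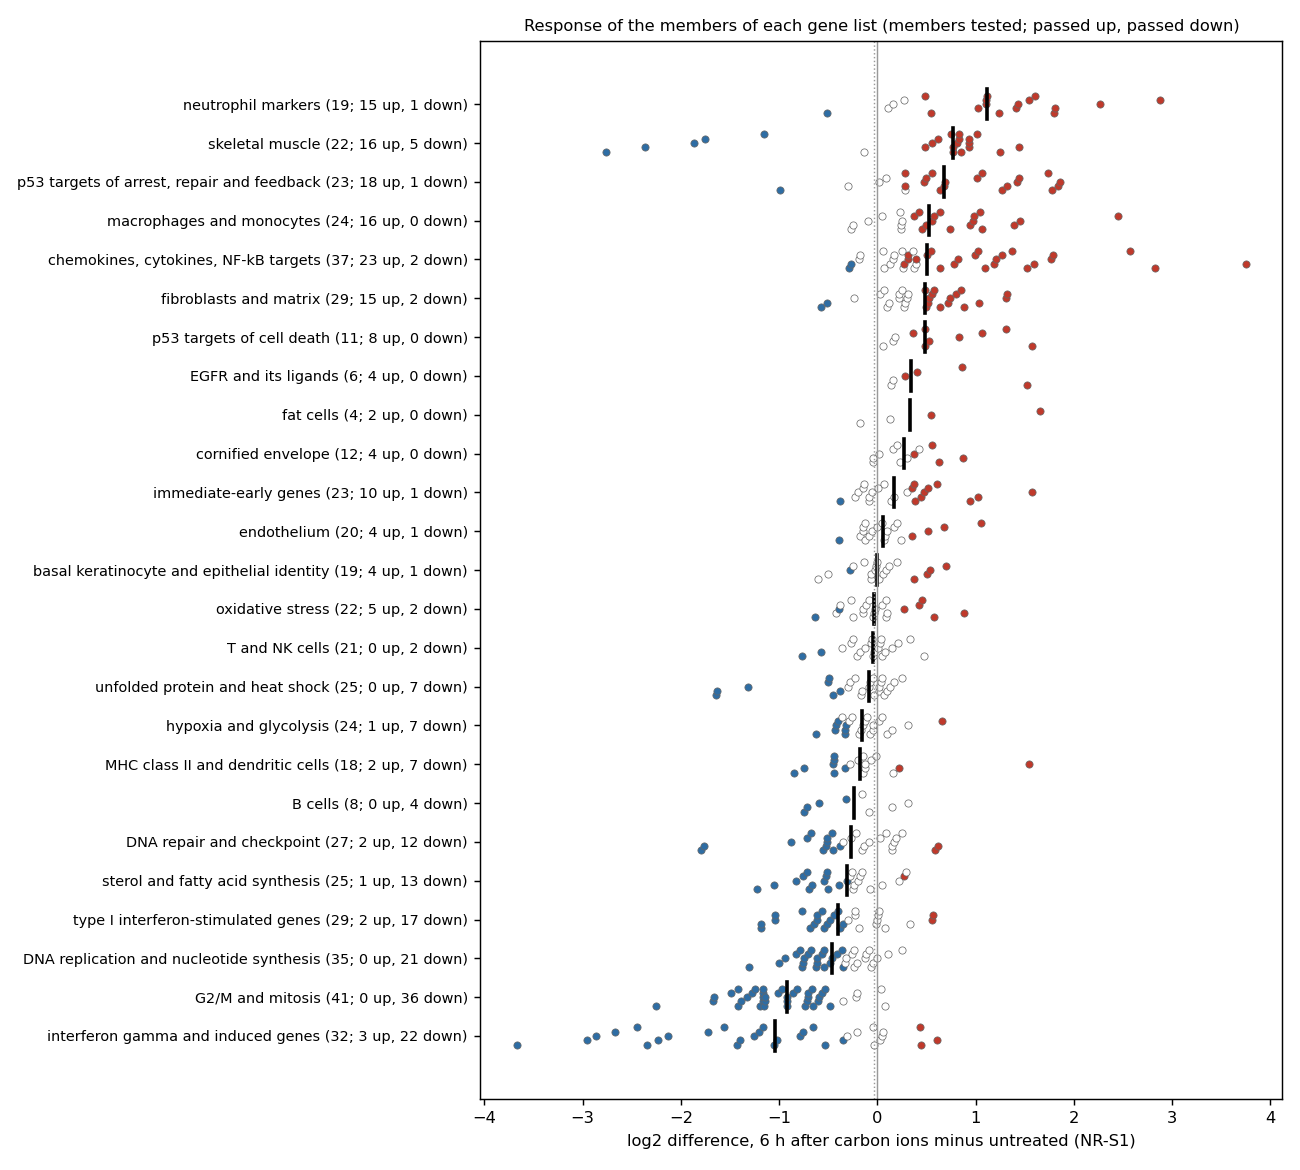
Responses of the tested members of each gene list at 6 h after carbon ions, as log2 differences from the untreated carbon-ion arm. Each point is a gene, red where it rose, blue where it fell and white where it did not pass. Black bars are list medians and the dotted line is the median of all genes. The p53 lists lie to the right (medians 0.68 and 0.48) and mitosis (-0.92) and interferon gamma genes (-1.04) to the left.

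The mitotic fall differed between beams at 6 h. Over the whole table, the carbon-ion response minus the 30 Gy gamma response passed upward for 881 of 13419 genes (6.57%) and downward for 1024 (7.63%). Of the 41 mitosis genes 33 were lower by this test and 0 higher, and the list's median response was -0.92 after carbon ions and -0.13 after 30 Gy gamma. After 50 Gy gamma the median was -0.76, and 7 of the 41 were lower after carbon ions and 2 higher, where 6.03% of 13415 genes were lower and 8.47% higher. Leaving out 6 h replicate 1 or untreated replicate 2 brought the genes lower than after 30 Gy from 1024 to 610 or 671, and those lower than after 50 Gy from 809 to 491 or 524. The 2 gamma comparisons share both arms' untreated arrays. In the untreated tumours the mitosis genes had a median difference between arms of 0.0056, but single genes differed. Of the 41, 13 were higher in the carbon-ion arm and 6 lower, where 30.7% of all genes were higher and 18.6% lower. The beam differences of such genes carry the difference between the untreated arms.

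Aspm gave a response of -0.29 after 30 Gy gamma and -1.46 after 50 Gy, against -2.26 after carbon ions, and the beam difference was -1.97 (adjusted p = 2.8e-11) and -0.80 (adjusted p = 0.0033). Nusap1 gave 0.05 and -1.05 against -1.67. Untreated, Aspm and Nusap1 read higher in the carbon-ion arm than in the gamma arm, by 0.61 and 0.65. At 6 h Nusap1 read 4.01 and 4.17 after carbon ions, 5.16 and 5.19 after 30 Gy gamma, and 4.08 and 4.05 after 50 Gy. Aspm read 1.86 on both carbon-ion arrays, 3.28 and 3.14 after 30 Gy gamma, and 2.16 and 1.94 after 50 Gy. Cdc20 gave -0.02 and -0.89 against -1.15, and Ccna2 gave -0.19 after 30 Gy against -1.49. For Plk1 the gamma responses were -0.43 and -1.54 against -1.20. It was lower after carbon ions than after 30 Gy gamma by 0.77 (adjusted p = 0.00032) and did not differ detectably from 50 Gy, at 0.34 (adjusted p = 0.16). Replication genes were lower after carbon ions than after 30 Gy gamma in 12 of 35 and repair genes in 11 of 27. The p53 arrest list, with medians of 0.68, 0.64 and 0.62 after carbon ions, 30 Gy and 50 Gy gamma, had 3 higher and 3 lower of 23 against 30 Gy.

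**Figure D3:**
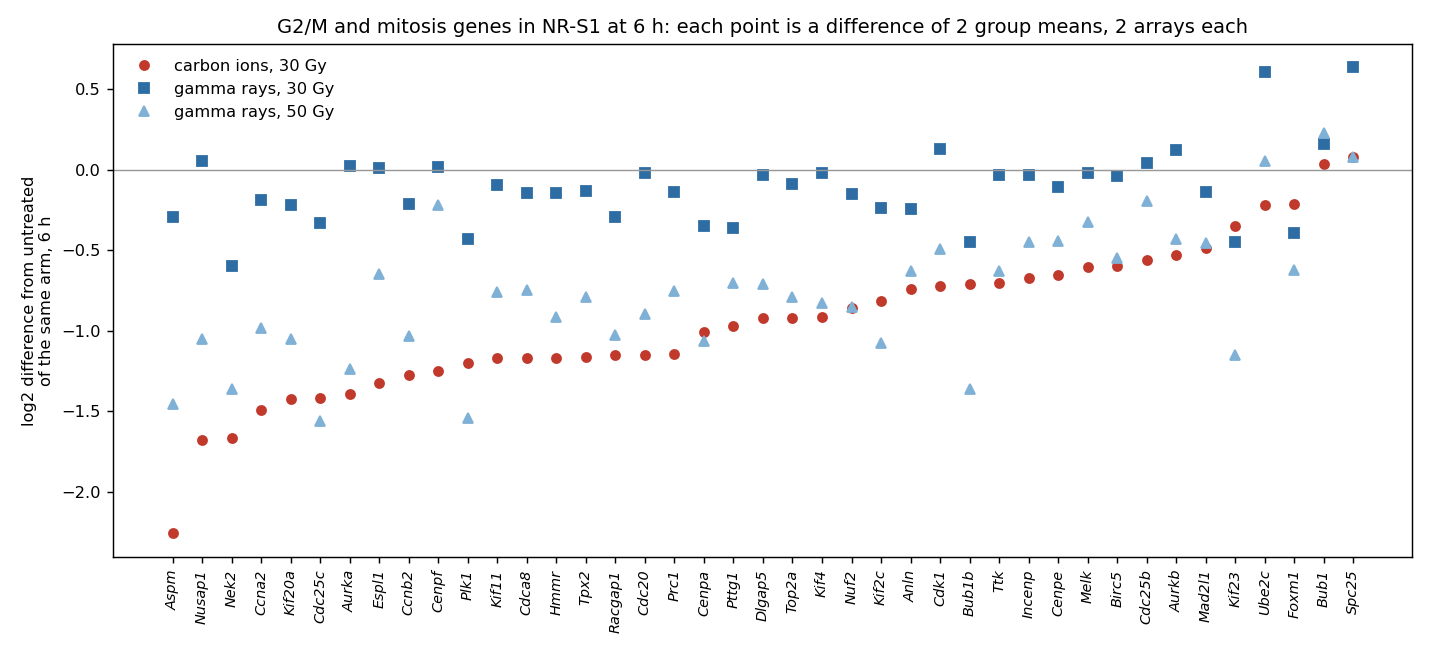
Responses of the 41 tested G2 and mitosis genes in NR-S1 at 6 h after 30 Gy of carbon ions, 30 Gy of gamma rays and 50 Gy of gamma rays, as log2 differences from each arm's own untreated tumours. Each marker is the value of a gene after the beam and dose named, with the genes along the horizontal axis. The medians are -0.92, -0.13 and -0.76.

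Inflammatory cytokines rose. Of 37 tested members of the list of chemokines, cytokines and NF-kB targets, 23 rose and 2 fell, with a median of 0.50. Il6, interleukin 6, read 0.28 and 0.40 untreated and 3.14 and 3.19 at 6 h, a 7.11-fold rise (adjusted p = 2.4e-27). It read 1.42 and 1.28 in the untreated gamma arm. The monocyte attractants Ccl7 and Ccl2 rose from 2.45 and 2.57 to 4.97 and 5.19, and from 2.99 and 3.05 to 4.71 and 4.85. Both genes rose more than in the other tumours: Ccl7 by 2.57 against 0.58, 0.47 and 0.31 in SCCVII, NFSa and #8520, and Ccl2 by 1.76 against 0.45, 0.59 and 0.27. The differences were 2.12 (adjusted p = 1.9e-17) for Ccl7 and 1.33 for Ccl2.

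Cxcl2 and Cxcl1 attract neutrophils through the receptor Cxcr2. Cxcl2 went from 2.85 and 3.00 to 4.61 and 4.80, a rise of 1.78 ± 0.16, against 3.87, 4.49 and 4.22 in the other tumours, a difference of -2.41 (adjusted p = 1.8e-15). Cxcl1 rose by 0.99, against 1.98, 3.68 and 3.06, a difference of -1.91 (adjusted p = 1.2e-14). Its response against the untreated gamma arm was 0.23 and did not pass (adjusted p = 0.15). Cxcl5, another ligand of that receptor, had a response of 0.16 that did not pass (adjusted p = 0.21), against 2.76, 2.53 and 3.03, a difference of -2.61 (adjusted p = 6.6e-26). After quantile normalization Cxcl5 passed at 0.22. Il1b, interleukin 1 beta, rose by 1.20 against 2.78, 3.10 and 2.31. Over all genes, 1532 of 13415 were higher in NR-S1 than the mean of the other tumours' responses (11.4%) and 1858 lower (13.9%), and in this list 8 were higher and 15 lower. Without 6 h replicate 1 the number of genes lower was 1174.

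Markers of neutrophils rose in 15 of 19 tested and fell in 1, with a median of 1.12. Mmp8, the neutrophil collagenase, read -0.66 and -0.62 untreated and 2.23 on both arrays at 6 h, a 7.33-fold rise. Retnlg, a resistin-like protein of neutrophils, rose by 2.26, Hdc, histidine decarboxylase, by 1.80, and Fpr2, a formyl peptide receptor, by 1.81. S100a8, an abundant granulocyte calcium-binding protein, rose by 1.54, against 2.32, 4.46 and 3.76 in the other tumours. The 1 member that fell was Ltf, lactoferrin of the secondary granules, by 0.51. Its level at 6 h was above that of the untreated gamma arm by 0.30, so that its direction rests on the reference, and its fall did not pass without 6 h replicate 1 (adjusted p = 0.11). The summed intensity of the 19 markers was 143 and 152 untreated and 339 and 387 at 6 h.

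Markers of macrophages and monocytes rose in 16 of 24 and fell in 0, with a median of 0.52. Taken against the untreated gamma arm, 12 were higher and 0 lower, with a median of 0.26. Untreated, 13 of the 24 read lower in the carbon-ion arm than in the gamma arm and 3 higher. Over all genes 18.6% were lower by that test and 30.7% higher. Chil3, a chitinase-like protein of alternatively activated macrophages, went from -1.14 and -1.21 to 1.22 and 1.32, a rise of 2.45. Mrc1, the mannose receptor, rose by 1.45, from 1.25 and 1.08 to 2.65 and 2.58, while its responses in SCCVII, NFSa and #8520 were -0.27, -0.43 and -0.54. Cd163, the haemoglobin scavenger receptor, rose by 1.39. Of the 24 markers 15 were higher than in the other tumours and 0 lower, against the background of 11.4% and 13.9%. The summed intensity of the list was 318 and 331 untreated and 464 and 487 at 6 h. Cd209a, a lectin of monocyte-derived dendritic cells, rose by 1.54, from -0.49 and -0.22 to 1.16 and 1.21.

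Genes induced by interferon gamma were lower at 6 h than in the untreated tumours of the same arm. Of 32 tested members of the list of its ligand, receptors and targets 22 fell and 3 rose, with a median of -1.04. Gbp8, a guanylate-binding protein of cell-autonomous immunity, read 2.22 and 2.33 untreated and -1.35 and -1.43 at 6 h, a 12.7-fold fall (adjusted p = 7.6e-31). Cxcl9, a ligand of the chemokine receptor Cxcr3 found on T cells, went from 5.04 and 5.26 to 2.25 and 2.32, and fell 7.27-fold. Ubd, a ubiquitin-like modifier, fell by 2.96, Gbp4 by 2.67, Cxcl10 by 2.45 and Cxcl11 by 2.35. The receptor chain Ifngr1 gave 0.06 and did not pass, and Ifngr2 rose by 0.44, a call lost without 6 h replicate 2 (adjusted p = 0.088). Against the untreated gamma arm they gave -0.70 and -0.28. Socs1, the feedback inhibitor of the pathway, rose by 0.60 and Cd274, which encodes PD-L1, by 0.44. The Cd274 call was lost without untreated replicate 2 or 6 h replicate 2 (adjusted p of 0.20 in each).

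This direction belonged to the comparison within the carbon-ion arm. The untreated tumours of the 2 arms differed: 4115 of 13422 genes were higher in the carbon-ion arm (30.7%) and 2501 lower (18.6%), a split that became 3164 and 3190 after quantile normalization. Of the 32 interferon gamma genes 24 were higher in the carbon-ion arm's untreated tumours and 2 lower, with a median difference of 1.34. In the untreated gamma arm Gbp8 read -1.43 and -1.54 and Cxcl9 read 1.79 and 1.76, close to the 6 h carbon-ion levels. With those arrays as the reference 13 of the 32 genes were higher at 6 h and 3 lower, with a median of 0.07, and with the untreated arrays of both arms 4 rose and 23 fell, with a median of -0.40. What made the untreated arms differ was not tested.

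After 30 Gy gamma, Gbp8 read 0.80 and 0.77 and Cxcl9 4.66 and 4.74, above the untreated arrays of the gamma arm. Against each arm's own untreated tumours, 25 of the 32 genes responded less to carbon ions than to 30 Gy gamma and 24 less than to 50 Gy, in each case with 0 the other way, and these differences carry the difference between the untreated arms. In SCCVII, NFSa and #8520 the list's median responses to carbon ions were 0.85, 0.34 and -0.15, and 25 of 32 genes were lower in NR-S1 than in the mean of these.

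**Figure D4:**
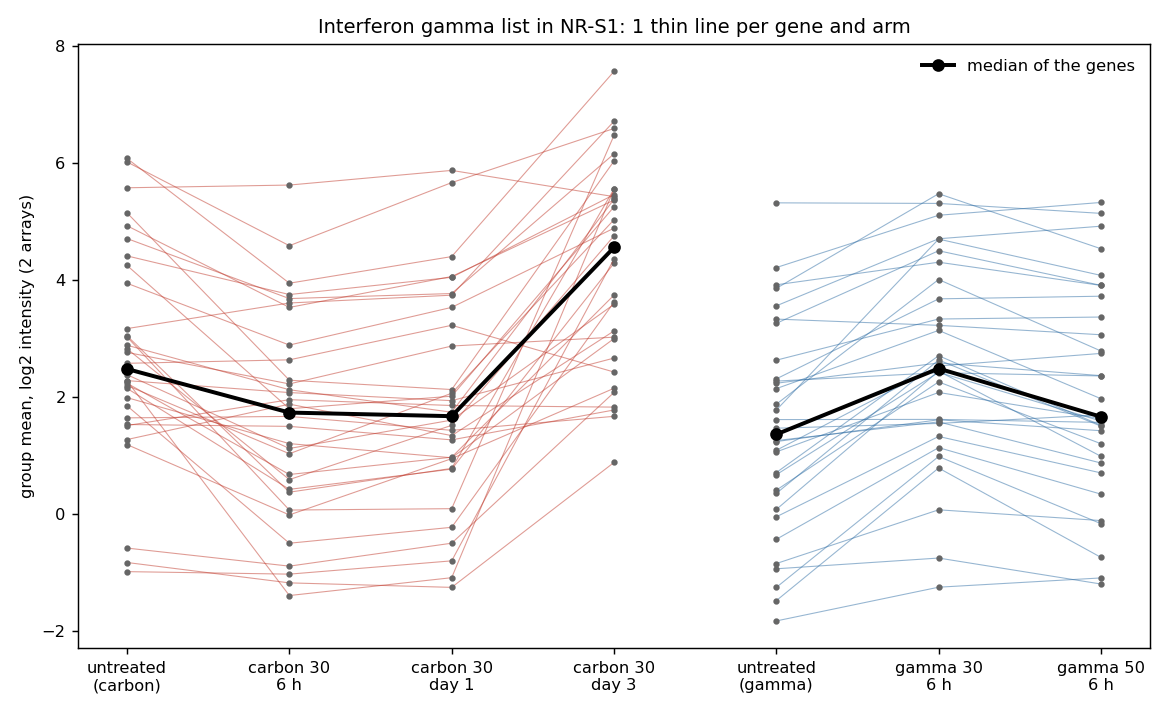
Group mean levels of the 32 tested interferon gamma genes in 7 NR-S1 groups, as log2 of the deposited intensity, with the median of the list. The median was 2.48 untreated, 1.73 at 6 h, 1.67 at day 1 and 4.56 at day 3 in the carbon-ion arm, and 1.36 untreated, 2.49 after 30 Gy and 1.66 after 50 Gy at 6 h in the gamma arm.

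The promoters of 2 immunity-related GTPases that fell, Igtp and Irgm2, carry a GAS site (TTCNNNGAA, the gamma-activated site) next to the core of an ISRE (GAAANNGAA, bound by IRF factors). The 100 bases before each start, from RefSeq on GRCm38.p6, are printed with these matches in capitals.
Igtp: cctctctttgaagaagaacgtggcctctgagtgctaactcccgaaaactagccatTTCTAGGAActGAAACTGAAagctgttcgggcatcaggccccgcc
Irgm2: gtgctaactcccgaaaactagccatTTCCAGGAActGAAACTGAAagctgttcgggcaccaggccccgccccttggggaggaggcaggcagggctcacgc
They lie at chr11:58199456-58199555 for Igtp and chr11:58214877-58214976 for Irgm2, both on the plus strand. Igtp read 2.27 and 2.03 untreated and 0.41 and 0.43 at 6 h, a fall of 1.73, and Irgm2 read 2.24 on both and then 0.61 and 0.75, a fall of 1.56. Their responses were 0.01 and 0.72 against the untreated gamma arm. In the 250 bases before the start, GAS letters were found in 7 of the 24 interferon gamma genes with a promoter sequence (29.2%) and ISRE core letters in 13 (54.2%), against 7.24% and 7.59% of all genes tested.

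The response of type I interferon-stimulated genes also rested on the reference. Of 29 tested 17 fell and 2 rose against the carbon-ion arm's untreated tumours, with a median of -0.40, and 26 of the 29 were higher in those tumours than in the untreated gamma arm. Zbp1, a sensor of Z-form nucleic acid, fell by 1.19, Oasl2 by 1.18, and Bst2, tetherin, by 1.04. Mx1, an antiviral GTPase, rose by 0.57 and Trim30a by 0.55. With the gamma arm's untreated tumours as the reference 23 of the 29 were higher at 6 h and 2 lower, with a median of 0.90. With the untreated tumours of both arms 13 were higher and 3 lower, with a median of 0.17. By the reference of both arms 2872 of the 13465 genes fitted were higher and 2469 lower. Against the gamma arm's alone, Oasl2, Zbp1 and Bst2 gave 1.05, 0.30 and 0.77.

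Genes of MHC class II and dendritic cells fell in 7 of 18 and rose in 2. H2-DMa, a peptide-loading chaperone, fell by 0.85 and Ciita, the master activator of the class II genes, by 0.75. Of 21 T and NK cell markers 2 fell, Gzmb, granzyme B, by 0.77 and Cd5 by 0.58, and 0 rose, where 15.2% of all genes fell. Neither passed without untreated replicate 2 (adjusted p of 0.72 for Gzmb and 0.17 for Cd5), nor did Gzmb without 6 h replicate 2 (adjusted p = 0.30). Against the untreated gamma arm Gzmb gave -0.15 and Cd5 0.28. Foxp3, which marks regulatory T cells, gave -0.05 and Cd3d -0.03, and neither passed. Of 8 B cell markers 4 fell and 0 rose, and Cd79a, a chain of the B cell receptor, read 3.42 and 3.53 untreated and 2.89 and 2.87 at 6 h. With the untreated gamma arm as the reference, class II genes were higher in 5 of 18 and lower in 3. T and NK cell markers were higher in 11 of 21 and lower in 2, and B cell markers higher in 5 of 8 and lower in 2. By that reference 4042 of the 13465 genes fitted were higher and 2854 lower. Cd3e, Cd8a and Ifng did not pass the filter on dim genes.

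Of 25 unfolded protein and heat shock genes 7 fell and 0 rose, with a median of -0.09. With the untreated gamma arm as the reference 6 were higher and 5 lower. The members described here had the largest changes. Trib3, a pseudokinase induced by Atf4, read 2.60 and 2.65 untreated and 1.03 and 0.96 at 6 h, a fall of 1.63 ± 0.10 (adjusted p = 1.5e-19). Chac1, which degrades glutathione, went from 0.94 and 1.06 to -0.63 and -0.67, and Ddit3, the stress transcription factor CHOP, from 6.52 and 6.54 to 5.15 and 5.28. After 30 and 50 Gy gamma the responses were -1.65 and -1.59 for Trib3, -2.12 and -2.34 for Chac1, and -1.09 and -0.68 for Ddit3. In SCCVII, NFSa and #8520 the Ddit3 responses were 1.36, 0.73 and 0.73, and NR-S1 lay 2.25 below their mean (adjusted p = 5.9e-18).

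Sterol and fatty acid synthesis genes fell in 13 of 25 and rose in 1, with a median of -0.31. Scd2, a stearoyl-CoA desaturase, went from 4.95 and 4.94 to 3.67 and 3.76, a fall of 1.23. Elovl6, a fatty acid elongase, fell by 1.06 and Cyp51, the lanosterol demethylase, by 0.83. The list's medians were lower in the other tumours, at -0.57, -0.50 and -0.92, and 9 of the 25 genes were higher in NR-S1 than in their mean, with 0 lower.

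Of 23 immediate-early genes 10 rose and 1, Klf6, fell, with a median of 0.17. The Klf6 call was lost without untreated replicate 2 (adjusted p = 0.068). With the untreated gamma arm as the reference 8 immediate-early genes were higher at 6 h and 9 lower. Fosl1, the AP-1 subunit Fra-1, read 1.08 and 1.22 untreated and 2.68 and 2.76 at 6 h, a rise of 1.57 ± 0.09, against 0.45, 0.20 and -0.28 in the other tumours. Dusp6, the phosphatase that limits ERK, rose by 1.02 and Nr4a3, an orphan nuclear receptor, by 0.94. Among EGFR ligands Ereg, epiregulin, went from 2.52 and 2.24 to 4.02 and 3.79 and Hbegf, another ligand, from 4.44 and 4.68 to 5.33 and 5.51. Against the untreated gamma arm Ereg gave 0.36, which did not pass (adjusted p = 0.056). Egfr itself rose by 0.28 (adjusted p = 0.01), a call that was lost with the mean of all probes (adjusted p = 0.12) and without untreated replicate 1, untreated replicate 2 or 6 h replicate 2 (adjusted p of 0.062 to 0.099). Of 6 members of the EGFR list 4 rose, and 2 did without 6 h replicate 2.

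Of 19 basal keratinocyte and epithelial genes 4 rose and 1 fell, with a median of -0.0014, and 9 were higher and 1 lower against the untreated gamma arm. Krt16, a keratin of activated keratinocytes, rose by 0.70, from 6.77 and 6.83 to 7.45 and 7.55. Of 12 cornified envelope genes 4 rose and 0 fell, with a median of 0.27, and 11 were higher against the untreated gamma arm and 9 against both arms. Sprr3, a small proline-rich envelope precursor, read -0.70 and -0.51 untreated and 0.25 and 0.28 at 6 h. At day 3 it read 7.96 and 7.89, far above both.

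Matrix genes rose in 15 of 29 and fell in 2, with a median of 0.49. Taken against the untreated gamma arm, 13 were higher and 2 lower, with a median of 0.20. Dcn, decorin, went from 3.21 and 3.28 to 4.52 and 4.62, a rise of 1.32, and Lum, lumican, from 1.04 and 1.27 to 2.40 and 2.53. Dcn responses were 0.18, -0.16 and 0.10 in the other tumours and -1.0 and -0.90 after 30 and 50 Gy gamma. Over the same arrays the skeletal muscle markers, which the host leg can contribute, changed in 21 of 22. Of these 16 rose and 5 fell, with a median of 0.77, and their summed intensity was 845 and 883 untreated and 1384 and 1387 at 6 h. With the untreated gamma arm as the reference 10 muscle markers were higher and 8 lower. No marker was below an intensity of 0.0704, a floor set at the highest of the 4 arrays' 1st percentiles, in the untreated tumours.

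The 5 muscle markers that fell belong to slow fibres. Myl2, the slow myosin light chain, went from 1.85 and 2.0 to -1.04 and -0.65 and Tnnt1, slow troponin T, from 2.63 and 2.86 to 0.36 and 0.39. Tnni1 fell by 1.87, Tnnc1 by 1.75 and Myl3 by 1.16. Fast-fibre Myh1 rose by 1.44, and Ckm, muscle creatine kinase, read 2.78 and 2.77 untreated and 4.03 on the 1 array at 6 h that had a value. Of 4 fat cell markers 2 rose, and Adipoq, adiponectin, went from 0.36 and 0.49 to 2.04 and 2.13. After 30 and 50 Gy gamma the muscle medians were -1.12 and -1.15, opposite to the median after carbon ions, and the fat medians -1.34 and -0.13. The slow-fibre genes Myl2 and Tnnt1 had gamma responses of the same sign as after carbon ions. These were -2.3 and -2.66 for Myl2 and -2.51 and -2.46 for Tnnt1. Their beam differences did not pass (adjusted p of 0.26 to 0.85). Adipoq gave -2.15 after 30 Gy and 0.75 after 50 Gy. The part of muscle and fat in the rise of matrix and macrophage genes was not tested.

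Other lists moved little. Of 24 hypoxia and glycolysis genes 7 fell and 1 rose, with a median of -0.16. The number that fell was 3 without untreated replicate 1, 4 without 6 h replicate 1 and 2 without 6 h replicate 2, and with the untreated gamma arm as the reference 13 were higher and 5 lower. Of 22 oxidative stress genes 5 rose and 2 fell, led by Hmox1, haem oxygenase 1, at 0.89 and Gstm1, a glutathione transferase, at -0.64. Against the untreated gamma arm 9 of them were higher and 4 lower, and Gstm1 gave 0.06. Of 20 endothelial genes 4 rose and 1 fell, with the vessel matrix protein Mmrn2 at 1.06 and the adhesion molecule Pecam1 at 0.67, and 2 rose without 6 h replicate 1. Against the untreated gamma arm 4 endothelial genes were higher and 7 lower, and Pecam1 gave -0.25. Pecam1 did not pass without 6 h replicate 1 (adjusted p = 0.057).

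Several of the largest single changes lay outside the lists. Ms4a10, a member of the membrane-spanning Ms4a family, read 0.29 and 0.44 untreated and 3.66 and 3.80 at 6 h. Celf5, an RNA-binding protein of the CELF family, went from -0.60 and -0.59 to 2.71 and 2.75, a rise of 3.32, and its responses in the other tumours were 2.97, 3.91 and 3.86. Tnfsf4, the costimulatory OX40 ligand, rose by 2.38, Cgref1 by 2.35, Them5, an acyl-CoA thioesterase, by 2.35, Garnl3 by 2.33, the chemokine Ccl9 by 2.30, Glyat, a glycine acyltransferase, by 2.26 and Dkkl1 by 2.25. Downward, Aoc1, diamine oxidase, went from 6.94 and 7.12 to 4.06 and 4.14 and Sostdc1, an antagonist of BMP and Wnt signalling, from 4.32 and 4.31 to 1.5 and 1.56. Cyp2f2 read 2.40 and 2.53 in the untreated gamma arm, between the untreated and 6 h levels of the carbon-ion arm. Its responses in SCCVII, NFSa and #8520 were 0.33, 0.88 and -0.18.

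At day 1 the mitotic genes read higher than at 6 h. Day 1 was compared directly with 6 h, with no untreated array in the test, and 1888 of 13428 genes were higher (14.1%) and 1509 lower (11.2%). Without day 1 replicate 2 these numbers were 773 and 703, without 6 h replicate 1 the number higher was 1045, and without 6 h replicate 2 the number lower was 933. Of the 41 mitosis genes 37 were higher at day 1 and 0 lower, and the list's median against untreated was 0.01. Plk1 read 0.03 and 0.24 at day 1, near its untreated values. Replication genes were higher in 26 of 35 with 0 lower, and repair genes in 17 of 27 with 1 lower.

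The cytokines went down over the same interval, with 15 of 37 lower at day 1 and 3 higher. Ptx3 read 1.71 and 1.79 at day 1, lower than at 6 h by 2.53 and still above both untreated arrays. Il6 was lower by 1.81. Among the 19 neutrophil markers Mmp8 was lower by 1.65, but only 5 were lower in all and 3 higher. Over all genes 11.2% were lower and 14.1% higher. The p53 arrest list kept its median, at 0.65 at day 1, with 2 of 23 higher and 4 lower. The interferon gamma genes were higher in 14 of 32 and lower in 2.

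Day 3 differed from 6 h more widely, with 2451 of 13423 genes higher (18.3%) and 4846 lower (36.1%). The interferon gamma list was higher in 28 of 32 with 0 lower, and Gbp8 read 5.57 and 5.54. T and NK cell markers were higher in 18 of 21, macrophage markers in 20 of 24 and cornified envelope genes in 11 of 12. The p53 arrest list was lower in 18 of 23, with 3 higher, and mitosis genes were lower in 21 of 41, with 3 higher, and their median against untreated was -1.26. Plk1 read -1.02 and -1.38, overlapping the 6 h arrays.

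**Figure D5:**
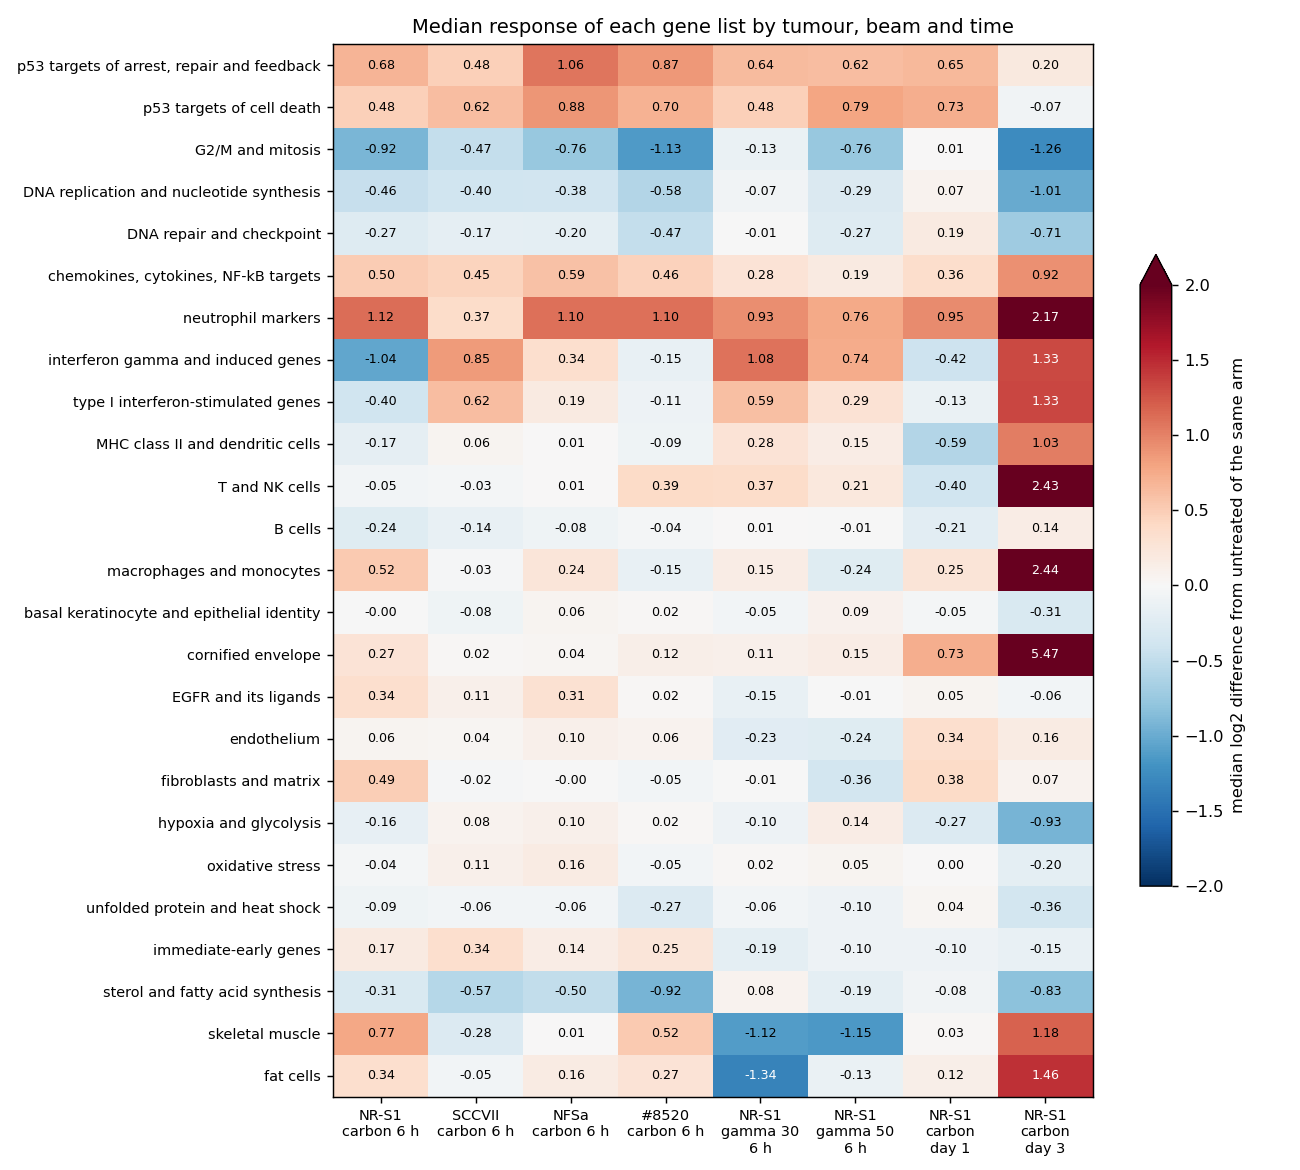
Median log2 response of each gene list against its own untreated tumours, for 4 tumours at 6 h after carbon ions and for NR-S1 after gamma rays and at later days. Colours are limited to 2 in either direction. In NR-S1 at 6 h the interferon gamma median is -1.04, against 0.85 in SCCVII, 0.34 in NFSa and -0.15 in #8520. The mitosis median is -0.92, against -0.13 after 30 Gy gamma.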

How the data were processed

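Total RNA of transplanted tumours was hybridised in a single colour to 44K CodeLink arrays, per the labels' protocols. The authors deposited 1 intensity per probe and array on a linear scale, and no source used here gives the scanner settings, background step or scaling. Log2 was taken of the deposited intensity, with values at or below 0 set to missing. No further normalization was done, since array medians lay within 0.0688 on the log2 scale over all 88 arrays. The low end differed between arms. The 1st percentile of intensity was 0.0567 and 0.0704 on the untreated NR-S1 arrays of the carbon-ion arm. It was 0.0312 and 0.0218 on those of the gamma arm.

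Of 36227 probes, 21615 had 1 gene symbol, 681 several and 13931 none. Symbols were updated through the Entrez number to RefSeq (GRCm38.p6), which matched 21487 probes. Each of 18067 genes was read from its probe of highest mean over the 88 arrays. A gene was tested if it lay above the dimmest 25% and had a value on at least 80% of arrays, which left 13465. For 231 genes a value was missing on at least 1 of the 4 arrays. A group mean then rests on the other array, where that had a value, and 13424 genes had a response.

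One linear model with a mean for each of 44 groups (44 residual degrees of freedom, prior 7.30) was fitted in R 4.3.3 with limma 3.58.1 and tested on simulated data, and files were read with the data.table package, version 1.17.8. Tests were two-sided with Benjamini-Hochberg adjustment over all genes of a comparison at 0.05. Each response was taken against untreated tumours of the same arm, and differences between tumours or beams are differences of such responses.

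The groups, the 26 gene lists and the named genes were chosen with earlier results of these data known. Genes named were the 15 largest rises and 10 largest falls at 6 h with groups apart, 5 each way for other comparisons, up to 4 members per list, other members by their role, and Cdkn1a, Mdm2, Ccng1, Plk1, Krt5, Krt14, Gbp8 and Cxcl9 always. Predicted genes were passed over. Of the red blood cell list 1 member was tested, and it did not pass. Replicate numbers did not pair samples, with deviations of same-numbered arrays correlating at 0.00209 to 0.246. Alternatives covered normalization, the log offset, dim-gene filters, probe choice, the arrays fitted, the prior, the replicate block, leaving out each array and other untreated references. The untreated gamma arm as the only reference and leaving out day 1 replicate 2 were chosen after seeing the data.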

Additional observations from a re-analysis of the deposited data

Results flagged for a closer look

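These differences between responses each passed limma's test. They are the 5 largest each way of each comparison, with predicted genes passed over. Ddit3, Trib3 and Chac1 were added by name to the comparison with the other tumours. Against the mean of SCCVII, NFSa and #8520, the NR-S1 response at 6 h was higher for Ms4a10 by 2.89, Glyat by 2.17, Them5 by 2.13 and Ccl7 by 2.12. It was also higher for Myof, myoferlin, by 2.83, but untreated replicate 2 read -0.93 there and the other untreated array 4.51, so that this value rests on 1 array, and the response without it was -0.03.

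The NR-S1 response was lower than that of the other tumours for Cyp2f2 (difference -4.43), Gbp8 (-4.35), Cxcl9 (-3.41), Gbp4 (-3.36) and Mgam, maltase-glucoamylase (-3.10). The stress genes Ddit3 (-2.25), Trib3 (-2.02) and Chac1 (-1.99) were lower as well. For the interferon genes the values rest on the untreated carbon-ion arm, which read higher than the untreated gamma arm. Cyp2f2 also read higher in that arm, by 2.73, and the Mgam response was 0.0454 against the untreated gamma arm.

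Against 30 Gy of gamma rays the carbon-ion response was higher for Angptl7, an angiopoietin-like protein, by 4.43, Ptx3 by 4.12, Adipoq by 3.80, Pdk4, a kinase that limits pyruvate oxidation, by 3.34 and Tcap, a sarcomere protein, by 2.77. It was lower for Gbp8 (-5.94), Cxcl9 (-5.78), Ubd (-5.33), Gbp4 (-4.67) and Cxcl11 (-4.59). Angptl7 read -0.28 and -0.31 untreated and 0.76 and 0.72 at 6 h in the carbon-ion arm, and 1.99 and 2.08 in the untreated gamma arm. Ptx3 read 0.45 and 0.61 in the untreated carbon-ion arm and 2.18 and 1.83 in the untreated gamma arm. The beam differences of both genes carry the difference between the untreated arms.

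Against 50 Gy of gamma rays it was higher for Angptl7 by 4.98, Pdk4 by 3.29, Cd209f, a C-type lectin, by 3.08, Mybpc1, a muscle myosin-binding protein, by 2.90 and Lrrtm2 by 4.60. For Lrrtm2 the 50 Gy arrays read -10.12 and -6.06, below the 1st percentile of the arrays compared here. It was lower for Cxcl9 (-5.16), Gbp8 (-4.41), Ubd (-3.87), Gbp4 (-3.48) and Cxcl11 (-3.44). The gamma comparisons use the same untreated arrays.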

How the results depend on the processing

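Of 133 genes recomputed for the response at 6 h, all kept their direction and side of the threshold under centring, the log offset, no filter on dim genes, the intensity trend with a robust prior and the replicate block. Calls changed for Cxcl5, Kif23 and Mgam after quantile normalization, for Gzmb with NR-S1 arrays alone, for Egfr, Gzmb and Myof with the 4 arrays alone and for Egfr with the mean of all probes. With the dimmest 50% left out, 98 of them were tested and kept their calls. With the gamma arm's untreated tumours as the reference, responses turned to 0.30 for Ltf, 0.0872 for Gbp8, 0.51 for Cxcl9, 0.0136 for Igtp, 0.72 for Irgm2, 1.05 for Oasl2, 0.30 for Zbp1, 0.77 for Bst2, 0.0059 for H2-DMa, 1.25 for Krt5, 1.22 for Krt14, -1.30 for Angptl7, 0.28 for Cd5, 0.76 for Cxcl11, 0.0641 for Gstm1, -0.70 for Ifngr1, -0.28 for Ifngr2, 0.0454 for Mgam, -0.25 for Pecam1 and -1.26 for Tcap, and 4042 genes were higher at 6 h. With both arms' untreated tumours they were 0.59 for Krt5, 0.61 for Krt14, -0.13 for Angptl7, -0.32 for Ifngr1 and -0.25 for Tcap. Bbc3, Foxm1 and Kif23 passed with either of these references, and Cxcl5, Foxp3, Lrrtm2 and Spc25 with the gamma arm's. Calls were lost for Cxcl1, Ubd, Cxcl10, Ciita, Ppp1r15a, Ckm, Ereg, Gzmb, Klf6 and Myof with the gamma arm's reference, and for Ltf, Oasl2, Bst2, Cd5, Ifngr2 and Pecam1 with both arms'. The cause was not tested.

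Leaving out 1 of the 4 arrays changed calls for Cd274, Egfr, Ltf, Foxm1, Cd5, Gzmb, Ifngr2, Kif23, Klf6 and Pecam1, and Myof ranged from -0.0326 without untreated replicate 2 to 5.41 without untreated replicate 1. Bub1 had no value with the mean of all probes and Ckm none without 6 h replicate 1. Leaving out 1 array gave 1233 to 1733 genes lower at 6 h, and 1174 to 1690 lower than in the other tumours. At day 1 against 6 h, 773 to 1526 genes were higher and 703 to 1046 lower. Against 30 Gy gamma 610 to 974 were lower and against 50 Gy 491 to 753. With the dimmest 50% left out, 1595 genes were higher at day 3 than at 6 h, with fewer genes tested. Quantile normalization changed the split between the untreated arms from 62.2% higher to 49.8%, and without the filter on dim genes it was 68.6%. With the replicate block 1978 genes rose and 2079 fell at 6 h, and the block changed no call among the 133 genes and no count by more than 1.5 times. Precision is limited by the 2 arrays per group.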
